A study of Mus musculus with 12 samples.

Results

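Sodium lactate was compared with its salt control in cultured mouse macrophages kept in ordinary oxygen. The cells were bone marrow-derived macrophages, a primary culture of macrophages grown from marrow cells, of C57BL/6 genetic background and taken at day 7 of culture. The 3 normoxia-lactate libraries came from cells in 25 mM sodium lactate and the 3 normoxia-NaCl libraries from cells in 25 mM NaCl. These 6 libraries, chosen by their labels, are 6 of 12 in the series. The other 6 came from the same kind of culture in 1% oxygen, 3 in 25 mM sodium lactate (hypoxia-lactate) and 3 in 25 mM NaCl (hypoxia-NaCl), and are used below only for values beside those in normoxia. The labels give neither the length of the incubation nor the mouse or dish behind each library. The p-values below therefore rest on the scatter among these libraries alone, part or all of which may be technical.

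Lactate is the end product of glycolysis in cells that ferment glucose. It leaves and enters cells with a proton through monocarboxylate transporters such as the products of Slc16a1 and Slc16a3, is converted to and from pyruvate by lactate dehydrogenase (Ldha, Ldhb), and can signal through surface receptors such as Hcar1. In poorly perfused tumour regions it accumulates together with low oxygen, and macrophages there are studied for wound-repair genes such as Arg1, Mrc1 and Vegfa. The NaCl arm gives the cells the same millimolar dose of a sodium salt, so the comparison here sets the lactate ion against chloride.

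The 6 normoxia libraries held 25328963 to 49885085 reads assigned to genes, and 14444 of 37620 gene identifiers were abundant enough to be tested. Library normoxia-NaCl 1 stood apart from the other 5. It had the fewest assigned reads, 13198 genes with at least 10 counts against 14242 to 14767, and 4.75% mitochondrially encoded counts against 2.04% to 3.51%. Its position on the first principal component, which held 52.4% of the variance, was -84.0 against 12.6 to 25.0. With it, genes varied between libraries of a group by a common coefficient of variation of 25.0%, and without it by 20.2%. Of the libraries in 1% oxygen, hypoxia-lactate 3 stood apart, with 11437 genes at 10 counts or more and 0.486% mitochondrial counts, and values from that oxygen level are given with and without it. In bulk samples of this kind, fewer cells of a type and less RNA per cell cannot be told apart.

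The cells carried macrophage transcripts in both arms. Levels below are in CPM, the standard scaling of counts by library size, adjusted by the TMM method. Csf1r, the receptor for the growth factor that sustains macrophages, was at 6194 ± 1946 CPM (SD, n = 3) in NaCl and 5634 ± 411 CPM (n = 3) in lactate. The lysosomal glycoprotein gene Cd68 was at 1562 ± 424 and 1275 ± 139 CPM. The integrin gene Itgam was at 1050 ± 105 and 1128 ± 60.0 CPM, and all 23 macrophage identity genes were tested. Markers of other cells were summed in the same way. The 13 lymphocyte markers summed to 1.49 to 4.25 CPM in NaCl and 2.11 to 2.93 CPM in lactate, with the B-cell genes Ms4a1 and Pax5 and the lymphoid genes Ncr1 and Gzma at 0 counts in all 6 libraries. The 12 dendritic cell markers summed to 6.74 to 10.6 and 6.80 to 9.13 CPM, with Xcr1 at 0, and the 12 mast cell and basophil markers to 2.61 to 6.41 and 5.25 to 6.95 CPM, with 6 of them at 0. The 16 neutrophil markers summed to 153 to 248 CPM in NaCl and 150 to 222 CPM in lactate, and the 12 fibroblast markers to 79.4 to 203 and 70.3 to 153 CPM. The 13 erythroid and megakaryocyte markers summed to 17.03 to 59.1 CPM in NaCl and 13.4 to 75.9 CPM in lactate. The osteoclast list had the highest of these sums, 356 to 599 CPM in NaCl and 403 to 626 CPM in lactate, with the calcitonin receptor gene Calcr at 0. The ranges of the groups overlapped for each of these lists, and their part in the results below was not tested.

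No gene differed between lactate and NaCl at the threshold. Genes were tested with the quasi-likelihood F test of edgeR, p-values were adjusted by the Benjamini-Hochberg method (BH) over all 14444 genes, and at an adjusted 0.05 the test called 0 genes higher and 0 lower (0% of those tested each way). The lowest adjusted p, 0.0526, was shared by Hspa1a and Tal2. At an unadjusted p under 0.05 there were 307 genes with a higher level in lactate (2.13%) and 456 with a lower level (3.16%), 5.28% together. DESeq2 on the same counts called 22 genes higher and 16 lower (0.152% and 0.111%), and limma-voom called 0 and 0. All 3 lactate libraries lay above all 3 NaCl libraries for 802 genes (5.55%) and below them for 909 (6.29%).

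The fit bounded the size of most differences. For 9476 of 14444 genes (65.6%) the 95% interval lay wholly inside -1 to 1 on the log2 scale, that is, less than a doubling or halving. The log2 difference, lactate minus NaCl, was positive for 7330 of 14444 genes (50.7%), and its median over all tested genes was 0.01. Of the 10060 genes with a mean of 5 CPM or more, 8776 (87.2%) had such an interval. Among those 10060 genes, 22 had a fitted log2 difference of at least 1 (0.219%) and 30 one of -1 or below (0.298%). Their median standard error (SE) was 0.20.

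**Figure D1:**
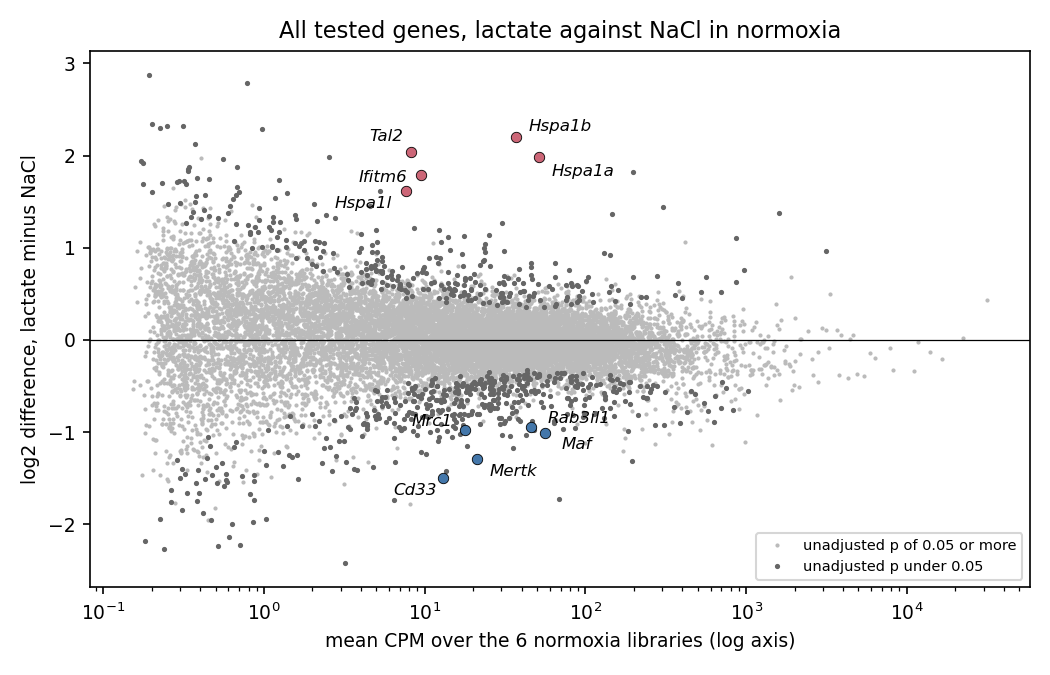
Log2 difference, lactate minus NaCl in normoxia, of each of the 14444 tested genes (vertical axis) against its mean CPM over the 6 libraries (horizontal axis, logarithmic). Dark points have an unadjusted p under 0.05, and the named points are the 5 genes with the smallest p in each direction, none of which passed the adjusted threshold of 0.05; differences of low genes scatter more widely than those of abundant genes.

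Of the 5 genes with the smallest p among those higher in lactate, 3 were HSP70 genes. Hspa1a and Hspa1b encode the stress-inducible HSP70 proteins, which hold and refold damaged proteins, and Hspa1l encodes a close relative best known from testis. The protein-coding genes on chromosome 17 run in the order Neu1, Hspa1b, Hspa1a, Hspa1l, Lsm2 in the annotation. The longest reading frames of Hspa1a and Hspa1b are 99.4% identical (11 differences), those of Hspa1a and Hspa1l 82.7%, so the split of reads between the first pair is uncertain. Their promoter windows, 250 bases before to 50 after the start of the gene, are shown because they are nearly the same sequence too. Both come from RefSeq (GRCm38.p6, minus strand, chr17:34972107-34972406 for Hspa1a and chr17:34959189-34959488 for Hspa1b) and are written 5′ to 3′, with the letters that match the heat shock element GAANNTTC in capitals.

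Hspa1a: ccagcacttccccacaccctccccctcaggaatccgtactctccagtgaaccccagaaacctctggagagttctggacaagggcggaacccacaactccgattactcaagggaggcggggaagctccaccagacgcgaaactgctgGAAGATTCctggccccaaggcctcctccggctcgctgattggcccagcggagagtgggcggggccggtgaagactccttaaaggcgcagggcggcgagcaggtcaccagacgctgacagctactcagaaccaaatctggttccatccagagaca
Hspa1b: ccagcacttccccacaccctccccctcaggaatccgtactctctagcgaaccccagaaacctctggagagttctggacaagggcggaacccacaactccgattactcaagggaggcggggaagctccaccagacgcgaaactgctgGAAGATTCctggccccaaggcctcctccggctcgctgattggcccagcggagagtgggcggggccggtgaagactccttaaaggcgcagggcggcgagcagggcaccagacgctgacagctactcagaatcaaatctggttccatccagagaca

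The windows differ at 4 of 300 positions, C44T, T47C, T249G and C276T, counted from 1 at the 5′ end with the Hspa1a base first. Each holds 1 match to GAANNTTC, which begins 104 bases before the start site. This motif reads the same on both strands and was searched after the values were seen. It occurs in 7.86% of the 32851 promoter windows that were searched, which leave out 1 chromosome. Among the 9 of 10 genes named below that the table of windows holds, it also occurs in Cd33 and Rab3il1, whose levels were lower in lactate. A gene was counted if any of its windows held the motif, a looser measure than the share of windows.

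Hspa1a (ENSMUSG00000091971) was at 19.5, 22.7 and 20.0 CPM in normoxia-NaCl 1, 2 and 3, and at 76.3, 109.6 and 60.6 CPM in normoxia-lactate 1, 2 and 3. The lowest lactate library was above the highest NaCl library. The log2 difference was 1.99 ± 0.22 (SE), with a 95% interval of 1.48 to 2.49, and edgeR's BH-adjusted p was 0.0526. Hspa1b (ENSMUSG00000090877) was at 12.02, 14.6 and 12.9 CPM in NaCl and 46.6, 90.0 and 45.1 CPM in lactate. Again the groups did not overlap, and normoxia-lactate 2 was the highest library for both genes. The difference was 2.20 ± 0.28 (interval 1.58 to 2.82; edgeR BH-adjusted p = 0.0560). Hspa1l (ENSMUSG00000007033) was at 4.30, 3.07 and 3.90 CPM in NaCl and 10.2, 13.8 and 10.5 CPM in lactate, without overlap, a difference of 1.62 ± 0.24 (edgeR BH-adjusted p = 0.123).

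Most other chaperones on a list had negative differences in the reported fit. The list of 25 cytosolic and mitochondrial chaperones, which includes Hspa1a and Hspa1b, had a median log2 difference of -0.18 and 17 negative members; without normoxia-NaCl 1 the median was 0.10. At an unadjusted p under 0.05, 3 were higher (Hspa1a, Hspa1b and Hspa4l, an HSP110-family member) and 1 lower (Ahsa1, an HSP90 co-chaperone). Of all genes, 2.13% were higher and 3.16% lower at that threshold. The lactate libraries lay wholly above the NaCl libraries for 5 of the 25, Hspa1a, Hspa1b and Hspa4l among them, and wholly below for 3. Of all genes, 5.55% lay wholly above and 6.29% wholly below. Hspa8, the constitutive HSP70, was at 1071 ± 510 CPM in NaCl and 742 ± 9.57 CPM in lactate, and its NaCl spread came mostly from normoxia-NaCl 1 at 1655 CPM. Dnajb1, an HSP40 partner, had a difference of -0.42 ± 0.20 (edgeR BH-adjusted p = 0.856), Hsph1 0.04 ± 0.16 and the heat shock factor gene Hsf1 -0.07 ± 0.16. All 21 genes of the endoplasmic reticulum folding list had intervals inside -1 to 1, with a median of -0.08 and 0 at an unadjusted p under 0.05.

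Tal2 and Ifitm6 were the other genes of these 5. Tal2 (ENSMUSG00000028417), which encodes a helix-loop-helix transcription factor related to Tal1, was at 2.85, 3.89 and 2.92 CPM in NaCl and 15.3, 13.4 and 11.3 CPM in lactate. The difference was 2.04 ± 0.23 (interval 1.52 to 2.57; edgeR BH-adjusted p = 0.0526), with no overlap. Its neighbour on chromosome 4, Tmem38b, an ion channel gene looked at because it lies next to Tal2, had 79.1 ± 9.65 and 123 ± 10.5 CPM and a difference of 0.64 ± 0.16 (unadjusted p = 0.00295). Ifitm6 (ENSMUSG00000059108), of the interferon-induced transmembrane family, was at 3.88, 5.23 and 3.74 CPM in NaCl and 14.6, 13.4 and 16.4 CPM in lactate. The 3 lactate values were close together and all above NaCl, a difference of 1.78 ± 0.22 (edgeR BH-adjusted p = 0.0560).

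The 5 genes with the smallest p in the other direction include surface receptors and a transcription factor of macrophages. Cd33 (ENSMUSG00000004609), a sialic acid-binding Siglec receptor, was at 17.02, 21.5 and 19.0 CPM in NaCl and 7.95, 5.44 and 6.95 CPM in lactate. Every lactate library was below every NaCl library, and the difference was -1.50 ± 0.21 (interval -1.97 to -1.03; edgeR BH-adjusted p = 0.104). Mertk (ENSMUSG00000014361), a receptor tyrosine kinase for the uptake of dying cells, was at 34.8, 23.9 and 31.6 CPM in NaCl. In lactate it was at 12.05, 11.7 and 13.1 CPM, below all NaCl libraries, a difference of -1.29 ± 0.19 (edgeR BH-adjusted p = 0.123). Mrc1 (ENSMUSG00000026712), the mannose receptor CD206 and a marker of alternative activation, was at 22.3, 26.6 and 22.4 CPM in NaCl and 11.1, 11.2 and 13.9 CPM in lactate. The groups did not overlap and the difference was -0.98 ± 0.18 (interval -1.38 to -0.58; edgeR BH-adjusted p = 0.364).

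Maf (ENSMUSG00000055435), which encodes the c-Maf transcription factor, was at 84.95, 65.0 and 73.3 CPM in NaCl and 34.2, 45.1 and 31.8 CPM in lactate, a difference of -1.01 ± 0.18 without overlap. Rab3il1 (ENSMUSG00000024663), which encodes an exchange factor for Rab proteins, was at 69.9, 49.4 and 61.7 CPM in NaCl and 30.7, 30.7 and 32.7 CPM in lactate, a difference of -0.94 ± 0.17 without overlap. The edgeR BH-adjusted p was 0.364 for Maf and 0.349 for Rab3il1.

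**Figure D2:**
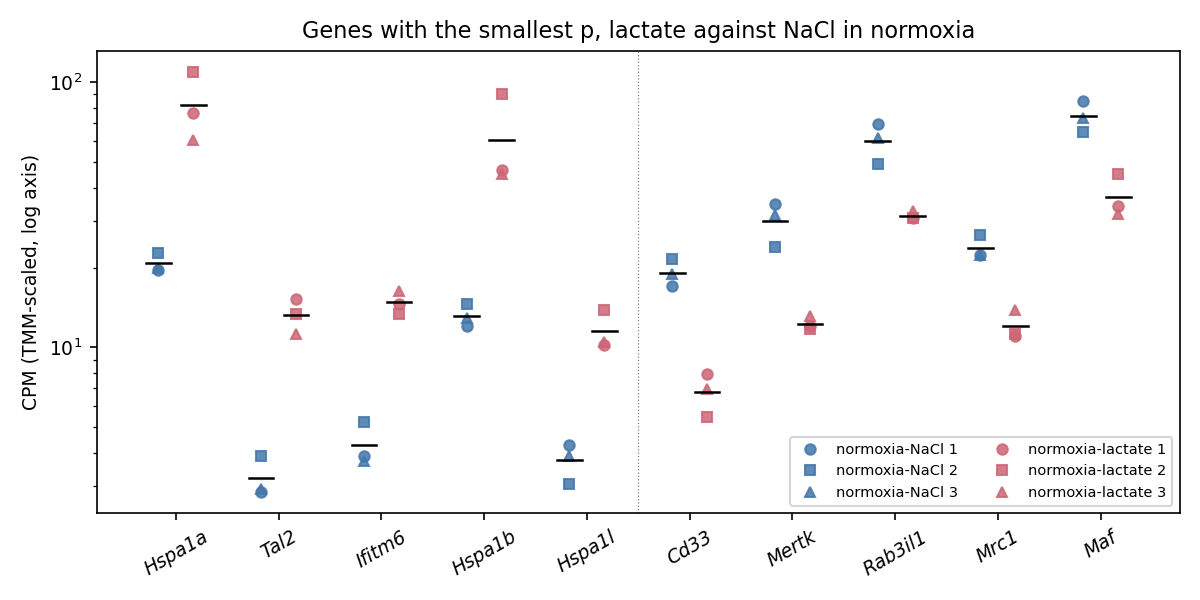
TMM-scaled CPM (logarithmic axis) of the 5 genes with the smallest p in each direction, by library, with circles, squares and triangles for libraries 1, 2 and 3, NaCl in blue and lactate in red, and a bar at each group mean. In all 10 genes the 3 lactate libraries and the 3 NaCl libraries do not overlap, and the edgeR BH-adjusted p runs from 0.0526 (Hspa1a, Tal2) to 0.364 (Mrc1, Maf).

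Each of these 10 genes kept its sign in every one of 17 alternative fits, while the calls came and went with the tool and the libraries. The 10 were chosen by their p in these same normoxia libraries. Their kept signs and their groups without overlap are therefore not separate support. Hspa1l, Ifitm6 and Cd33 passed the adjusted threshold in 6 of the 17, Hspa1a and Hspa1b in 5, Tal2 and Mertk in 4, and Rab3il1, Mrc1 and Maf in 2. Without each of the 6 libraries in turn none passed, and the lowest adjusted p of those fits ran from 0.0701 to 0.378.

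Most genes of the salt and osmotic stress list had higher mean levels in lactate. Of its 10 genes, 9 had a positive log2 difference, with a median of 0.49 against 0.01 for all tested genes. At an unadjusted p under 0.05, 5 of 10 were higher and 0 lower, against 2.13% and 3.16% of all genes. That count higher was 4 or 5 in every leave-one-out fit. The lactate libraries lay wholly above the NaCl libraries for 5 of the 10 and wholly below for 0, against 5.55% and 6.29% of all genes. None of the 10 passed the adjusted threshold. Slc6a12, which encodes the betaine transporter, was at 184, 171 and 132 CPM in NaCl and 417, 567 and 342 CPM in lactate. That is a difference of 1.45 ± 0.23 without overlap (interval 0.92 to 1.97; edgeR BH-adjusted p = 0.231; 5.32e-06 by DESeq2).

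Slc5a3, which encodes the sodium-dependent myo-inositol transporter, was at 57.5, 105.5 and 82.9 CPM in NaCl and 242, 177 and 218 CPM in lactate. The groups did not overlap and the difference was 1.37 ± 0.24 (edgeR BH-adjusted p = 0.311). Slco4a1, an organic anion transporter gene, was at 460.1, 729.6 and 466 CPM in NaCl and 1232, 1469 and 858 CPM in lactate, a difference of 1.10 ± 0.28. The differences of Hspa4l (0.58 ± 0.15) and of Sgk1, a kinase gene that responds to salt (0.39 ± 0.16), were smaller. Nfat5, which encodes the tonicity-responsive transcription factor, had 85.2 ± 22.6 and 104 ± 12.9 CPM with overlapping groups. Akr1b3, aldose reductase, was at 89.9 ± 20.7 and 78.3 ± 18.1 CPM, and Slc6a6, the taurine transporter, at 2166 ± 422 and 2187 ± 135 CPM. Fxyd2, a subunit of the sodium pump that was on no list and was chosen after its values were seen, was at 115, 86.1 and 61.8 CPM in NaCl and 211, 492 and 226 CPM in lactate (1.82 ± 0.36; edgeR BH-adjusted p = 0.470).

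Slc6a12 had the smallest p on the salt and osmotic stress list, and of its promoter windows the one that holds a tonicity response element is shown. Its other windows in RefSeq held no match and are not shown. The window (GRCm38.p6, plus strand, chr6:121342324-121342623) is written 5′ to 3′, with the match in capitals.

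Slc6a12: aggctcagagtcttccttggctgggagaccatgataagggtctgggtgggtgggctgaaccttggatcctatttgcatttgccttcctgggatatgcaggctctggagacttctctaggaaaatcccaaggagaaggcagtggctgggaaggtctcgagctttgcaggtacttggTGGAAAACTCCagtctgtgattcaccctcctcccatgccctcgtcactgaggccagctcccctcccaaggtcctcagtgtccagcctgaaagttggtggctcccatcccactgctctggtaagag

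The match begins 75 bases before that start site. Slc5a3, the only other gene of the list that was searched, held no match to this element. The element, searched on both strands after the values were seen, occurs in 4.96% of the 32851 windows, and of the 9 named genes in the table Cd33 also holds it, overlapping its GAANNTTC match. A further 9 motifs were searched on both strands in the same windows. ACGTG, a core of the hypoxia response element (19.6% of windows), occurs in Hspa1l and Rab3il1, GCGTG, its other form (32.4%), in Hspa1l and Mertk, and TGACNNNGC, an antioxidant-type element (12.4%), in Tal2. None of the 9 genes held TGACGTCA (cyclic AMP response, 1.79%), TGANTCA (AP-1, 7.81%), TTGCATCA (CEBP-ATF, 0.895%), CCGGAAGT (ETS, 3.89%), GTCACGTGA (TFEB family, 0.782%, which contains ACGTG) or the interferon response element (3.44%). Slc6a12 and Slc5a3, which are not among these 9, were searched too. The Slc6a12 window shown also holds TGANTCA, 58 bases before the start site. A Slc5a3 window holds GCGTG at 240 and 191 bases before its start site.

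Cell-division genes had lower mean levels in lactate. All 30 mitosis genes had a negative log2 difference, from -1.15 to -0.45 with a median of -0.82. At an unadjusted p under 0.05, 26 of 30 were lower and 0 higher, against 3.16% and 2.13% of all genes. For 20 of the 30 the groups did not overlap, against 6.29% of all genes. None passed the adjusted threshold, and DESeq2 called Nusap1. Nusap1, a spindle protein, was at 24.0, 34.0 and 17.4 CPM in NaCl and 11.1, 13.5 and 9.41 CPM in lactate, a difference of -1.15 ± 0.26 (edgeR BH-adjusted p = 0.669; 0.0285 by DESeq2). The kinase gene Cdk1 was at 35.1, 53.3 and 27.2 CPM in NaCl and 20.9, 23.2 and 17.5 CPM in lactate. Mki67, the proliferation antigen, was at 243, 289 and 168 CPM in NaCl and 137, 167 and 128 CPM in lactate, where the highest lactate library came within 1 CPM of the lowest NaCl library.

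Normoxia-NaCl 2 had the highest level of each of these 3 genes. The summed level of the 30 mitosis genes, on the scale of all 12 libraries, was 979, 1438 and 811 CPM in NaCl and 608, 754 and 535 CPM in lactate. Without normoxia-NaCl 2 the median was -0.56 and 16 genes were lower at an unadjusted p under 0.05, and without normoxia-lactate 3 the count was 16 and the median -0.71. Without normoxia-NaCl 1 it was 29. In a fit over all 12 libraries, whose spread includes hypoxia-lactate 3, the count was 9, with a median of -0.82.

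The 30 genes of DNA replication and nucleotide supply were also all negative, with a median of -0.44, but with less separation. At an unadjusted p under 0.05, 7 were lower and 0 higher, against 3.16% and 2.13% of all genes, and the groups of 4 did not overlap, against 6.29%. Examples are Lig1, a DNA ligase (43.3 ± 9.498 and 26.1 ± 6.63 CPM), and Mcm5, a subunit of the replicative helicase, which had 50.6 ± 17.2 and 27.5 ± 8.91 CPM with overlapping groups. This count depended on single libraries. Without normoxia-NaCl 2 it was 1, with a median of -0.19, without normoxia-lactate 3 it was 1, without normoxia-NaCl 3 it was 18 and without normoxia-lactate 2 it was 13.

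**Figure D3:**
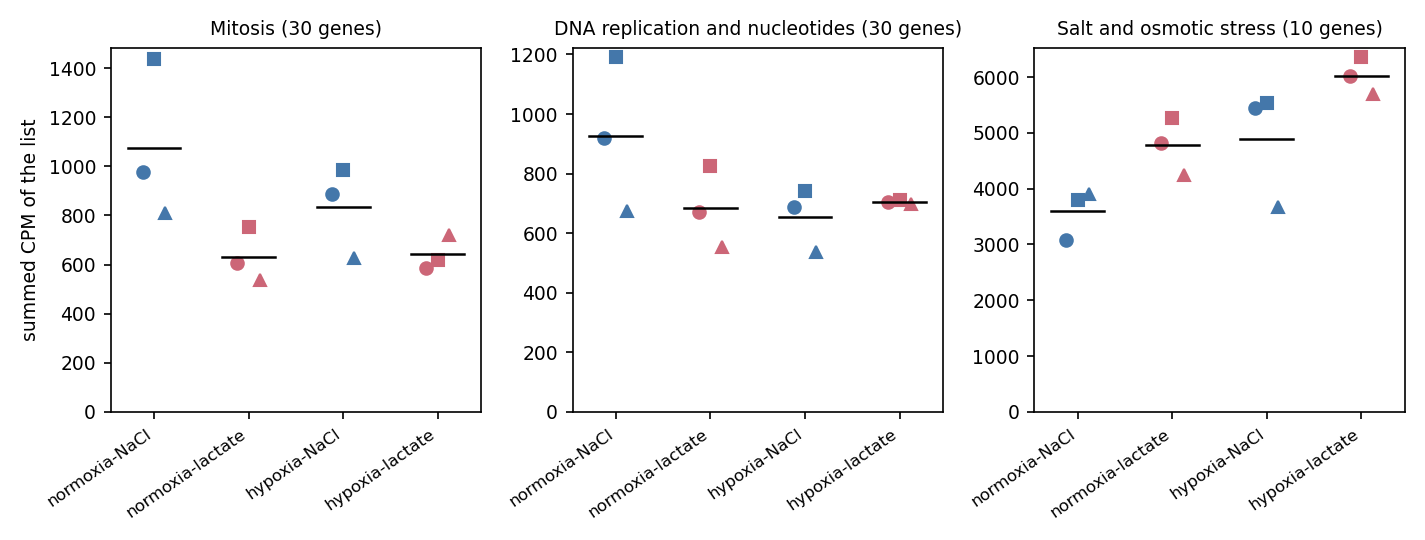
Summed TMM-scaled CPM of 3 gene lists in each of the 12 libraries (vertical axes from 0), with circles, squares and triangles for libraries 1, 2 and 3, and a bar at each group mean. In normoxia the mitosis sum is 811 to 1438 CPM in NaCl and 535 to 754 CPM in lactate; the replication sums overlap, and the salt and osmotic stress sum is 3078 to 3906 CPM in NaCl and 4242 to 5263 CPM in lactate.

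Complement genes were low in lactate for some members only. Of 11 tested, 4 had a lower level at an unadjusted p under 0.05 and groups without overlap, namely Cfp and the 3 chains of C1q, against 3.16% of all genes lower at that threshold and 6.29% without overlap. Cfp, properdin, which stabilises the alternative-pathway convertase, was at 133, 113 and 70.3 CPM in NaCl and 26.2, 50.1 and 18.9 CPM in lactate, a difference of -1.73 ± 0.36 (edgeR BH-adjusted p = 0.512; 0.00171 by DESeq2). C1qa was at 77.3, 30.8 and 63.8 CPM in NaCl and 28.02, 28.1 and 27.8 CPM in lactate. The lowest NaCl library, normoxia-NaCl 2, was thus close to the lactate libraries, and C1qb and C1qc had the same order (504 ± 171 and 271 ± 10.6 CPM; 353 ± 124 and 186 ± 8.74 CPM). The 3 genes are neighbours on chromosome 4. The receptors C3ar1 (680.4 ± 30.8 and 721 ± 115 CPM) and C5ar1 (262 ± 120.4 and 344 ± 45.7 CPM) had overlapping groups. The list's median, -0.31, ranged from -0.80 to 0.12 when libraries were left out in turn, with 4 or 5 members lower at an unadjusted p under 0.05 in each of those fits and 1 in a fit over all 12 libraries.

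Macrophage identity and polarisation genes were mixed. Of the 23 identity genes, 2 were higher (Cd14, the endotoxin co-receptor, and the lysozyme gene Lyz1) and 4 lower (Mertk, Maf, Adgre1, the F4/80 antigen, and Aif1) at an unadjusted p under 0.05. Of all genes, 2.13% were higher and 3.16% lower at that threshold. The lactate libraries lay wholly above the NaCl libraries for 3 of the 23 and wholly below for 6, against 5.55% and 6.29% of all genes. The list's median was -0.09. Leaving out normoxia-NaCl 1 gave a median of 0.09, and leaving out normoxia-NaCl 2 gave -0.20. Cd14 was at 678 ± 196 and 1050.0 ± 39.2 CPM and Adgre1 at 824 ± 54.9 and 600 ± 47.3 CPM. Of 21 tested alternative activation genes, 1 was higher (Folr2, a folate receptor, 60.6 ± 5.24 and 91.3 ± 17.2 CPM) and 2 lower (Mrc1 and Tgm2, transglutaminase 2). For 1 of the 21 the lactate libraries lay wholly above the NaCl libraries, and for 3 wholly below. Tgm2 was at 202, 150 and 151 CPM in NaCl and 99.9, 102 and 77.8 CPM in lactate. The list's median of -0.38 was -0.10 without normoxia-NaCl 1, and its count lower was 5 without normoxia-NaCl 2. Neither of the identity genes counted as higher passed that level without normoxia-lactate 1 or without normoxia-lactate 2. Arg1, arginase 1, was too low to be tested, with raw counts of 0, 0 and 0 in NaCl and 0, 2 and 0 in lactate, so no fold is given at this depth. The Arg1 counts in 1% oxygen were 8, 1 and 19 in NaCl and 0, 31 and 2 in lactate.

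Pro-inflammatory genes had members in both directions at an unadjusted p under 0.05, and interferon-stimulated genes only lower ones. Of 26 tested pro-inflammatory genes, 3 were higher (Il1b, the interleukin, at 0.767 ± 0.111 and 1.72 ± 0.404 CPM; the chemokine gene Cxcl1; and Nfkbiz, an inhibitor-like partner of NF-kappaB) and 2 lower (Ccl2, at 1.28 ± 0.839 and 0.461 ± 0.147 CPM, and Marco) at an unadjusted p under 0.05. Of all genes, 2.13% were higher and 3.16% lower at that threshold. Over the leave-one-out fits the count higher ran from 1 to 6 and the count lower from 0 to 3. Nfkbiz was at 16.5 ± 4.21 CPM in NaCl and 30.1 ± 2.56 CPM in lactate. Nos2, inducible nitric oxide synthase, was not tested, with raw counts of 0, 8 and 0 in NaCl and 10, 7 and 5 in lactate. Of 30 interferon-stimulated genes, 23 were negative, with a median of -0.20. At that threshold 4 were lower (Oasl2, Gbp2, Gbp3 and Rtp4) and 0 higher, and 2 were lower without normoxia-lactate 1. The lactate libraries lay wholly below the NaCl libraries for 5 of the 30, against 6.29% of all genes. Oasl2, of the oligoadenylate synthetase family, was at 31.7 ± 4.94 and 19.0 ± 0.569 CPM. Of 18 Toll-like receptor genes and partners only Cd14 was at an unadjusted p under 0.05.

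Among genes that handle lactate itself, Slc16a1 had 14.9 ± 1.03 CPM in NaCl and 16.7 ± 1.28 CPM in lactate, a log2 difference of 0.16 ± 0.17 (interval -0.22 to 0.53). Slc16a3, the exporter of glycolytic cells, had 87.6 ± 7.56 and 115 ± 42.2 CPM, a difference of 0.40 ± 0.24 with overlapping groups, which was 0.07 without normoxia-lactate 2. Ldha was at 920.03, 631 and 550.3 CPM in NaCl and 625, 853 and 612 CPM in lactate, a difference of -0.01 ± 0.25 (interval -0.57 to 0.55). The groups overlapped for all 3 of these genes. Ldhb, whose isoform favours lactate oxidation, was at 6.45, 7.19 and 7.18 CPM in NaCl and 4.12, 4.67 and 5.49 CPM in lactate, a difference of -0.55 ± 0.23 without overlap (unadjusted p = 0.0377; edgeR BH-adjusted p = 0.856).

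Gpr132, an orphan-type receptor reported to sense lactate, had a difference of 0.09 ± 0.17 (interval -0.29 to 0.47), and the receptor gene Hcar1 had at most 1 count in any of the 6 libraries. In the list of 10 tested lactate transport and interconversion genes, 8 had intervals inside -1 to 1. Ldhb was the only member at an unadjusted p under 0.05, against 5.28% of all genes in either direction. Of 16 histone deacetylation and acetyl supply genes, 1 was at that threshold, Acss2, which makes acetyl-CoA from acetate. Acss2 was at 17.4, 19.6 and 18.5 CPM in NaCl and 28.5, 34.4 and 33.7 CPM in lactate, a difference of 0.80 ± 0.16 without overlap (edgeR BH-adjusted p = 0.505; 0.0103 by DESeq2).

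The 23 glycolysis and glucose uptake genes had a median log2 difference of -0.02 and ranged from -0.89 to 0.72. Of these, 18 had intervals inside -1 to 1, and 0 were at an unadjusted p under 0.05. Of 27 other targets of hypoxia-inducible factor, 3 were higher (Egln3, Ankrd37 and Ddit4) and 1 lower (Selenbp1) at that threshold, against 2.13% and 3.16% of all genes, with a median of 0.16 (0.05 without normoxia-lactate 3) and 20 intervals inside -1 to 1. Ddit4, an inhibitor of mTOR signalling, had the highest difference, 1.06 ± 0.41, with overlapping groups. The count higher was 0 without normoxia-NaCl 3 or normoxia-lactate 2, and 1 without normoxia-lactate 1. Egln3, a prolyl hydroxylase, was at 3.72 ± 0.641 and 6.27 ± 1.51 CPM. Vegfa, the endothelial growth factor, was at 38.8, 54.4 and 57.7 CPM in NaCl and 74.3, 94.0 and 52.9 CPM in lactate. Normoxia-lactate 3 lay below 2 of the NaCl libraries, and the difference was 0.55 ± 0.23 (interval 0.02 to 1.08; unadjusted p = 0.0418; edgeR BH-adjusted p = 0.856). It was 0.33 without normoxia-lactate 2 and 0.74 without normoxia-lactate 3.

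In the mitochondrial lists, 32 of 34 nuclear-encoded oxidative phosphorylation genes were negative, with a median of -0.31. At an unadjusted p under 0.05, 3 were lower (Ndufs3, Ndufv2 and Atp5o) and 0 higher, against 3.16% and 2.13% of all genes. Without normoxia-NaCl 1, the library with the highest mitochondrial share, that median was -0.05. The count was 0 without that library or without any one lactate library, 10 without normoxia-NaCl 3 and 9 without normoxia-NaCl 2. For the 13 genes encoded in the mitochondrial genome the median was -0.02 with 0 at that threshold. Without normoxia-NaCl 1 the median was 0.52 and 8 were higher at it. In the tricarboxylic acid cycle list Idh2 (47.2 ± 3.84 and 33.4 ± 2.33 CPM) and Suclg2 were lower and Idh1 (336 ± 67.6 and 462 ± 38.5 CPM) higher at that threshold, of 26 tested, where leaving out 1 library gave 1 to 5 lower.

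The lysosomal list had 30 of 32 members with intervals inside -1 to 1, and the 18 subunits of the vacuolar proton pump, which acidifies lysosomes, had 17. That share was 65.6% of all tested genes and 87.2% of those at 5 CPM or more. Of the 32, 26 were negative (median -0.21), and of the 18, 16 (median -0.11). At an unadjusted p under 0.05, 1 lysosomal gene was higher (Ctsk), 1 lower (Hexa) and 0 pump genes either way, against 2.13% and 3.16% of all genes. Atp6v0d2, a pump subunit of macrophages and osteoclasts, spanned a wide range in both groups, 241, 86.6 and 285 CPM in NaCl and 150.3, 62.5 and 271 CPM in lactate. Its difference was -0.34 ± 0.52 (interval -1.51 to 0.83). Cholesterol synthesis genes had 22 of 23 intervals inside -1 to 1 and 0 members at an unadjusted p under 0.05.

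The vascular and matrix list had 6 members higher and 1 lower of 32 at an unadjusted p under 0.05, against 2.13% and 3.16% of all genes. Its median was -0.11, on the other side of 0 from most of those members, and was 0.23 without normoxia-NaCl 1 and 0.11 without normoxia-lactate 3. The higher ones were Vegfa, Vegfc, Flt1, Spp1, Mmp19 and Plod2, and the lower one was Plau, urokinase; without normoxia-lactate 1 the count higher was 3, and without normoxia-NaCl 3 the count lower was 4. Spp1, osteopontin, was at 789, 1258 and 626 CPM in NaCl and 1736, 3463 and 1749 CPM in lactate, a difference of 1.38 ± 0.36 without overlap (edgeR BH-adjusted p = 0.771; 0.0240 by DESeq2). Mmp19, a metalloproteinase, was at 63.8 ± 8.20 and 98.3 ± 9.80 CPM. In the ATF4 amino acid response list, 24 of 31 genes were negative, with 2 higher (Slc7a11 and Slc6a9) and 3 lower (Asns, Psat1 and Slc7a5) at that threshold, and 1 to 8 lower over the leave-one-out fits. Slc7a11, the cystine-glutamate exchanger, was at 32.1, 35.8 and 32.4 CPM in NaCl and 52.2, 59.7 and 61.6 CPM in lactate, a difference of 0.79 ± 0.15 without overlap (edgeR BH-adjusted p = 0.417; 0.00534 by DESeq2). Of 23 immediate early genes, 3 were higher (Fosl2, Dusp1 and Klf2), with a median of 0.27 and a count of 0 to 5 over the leave-one-out fits.

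**Figure D4:**
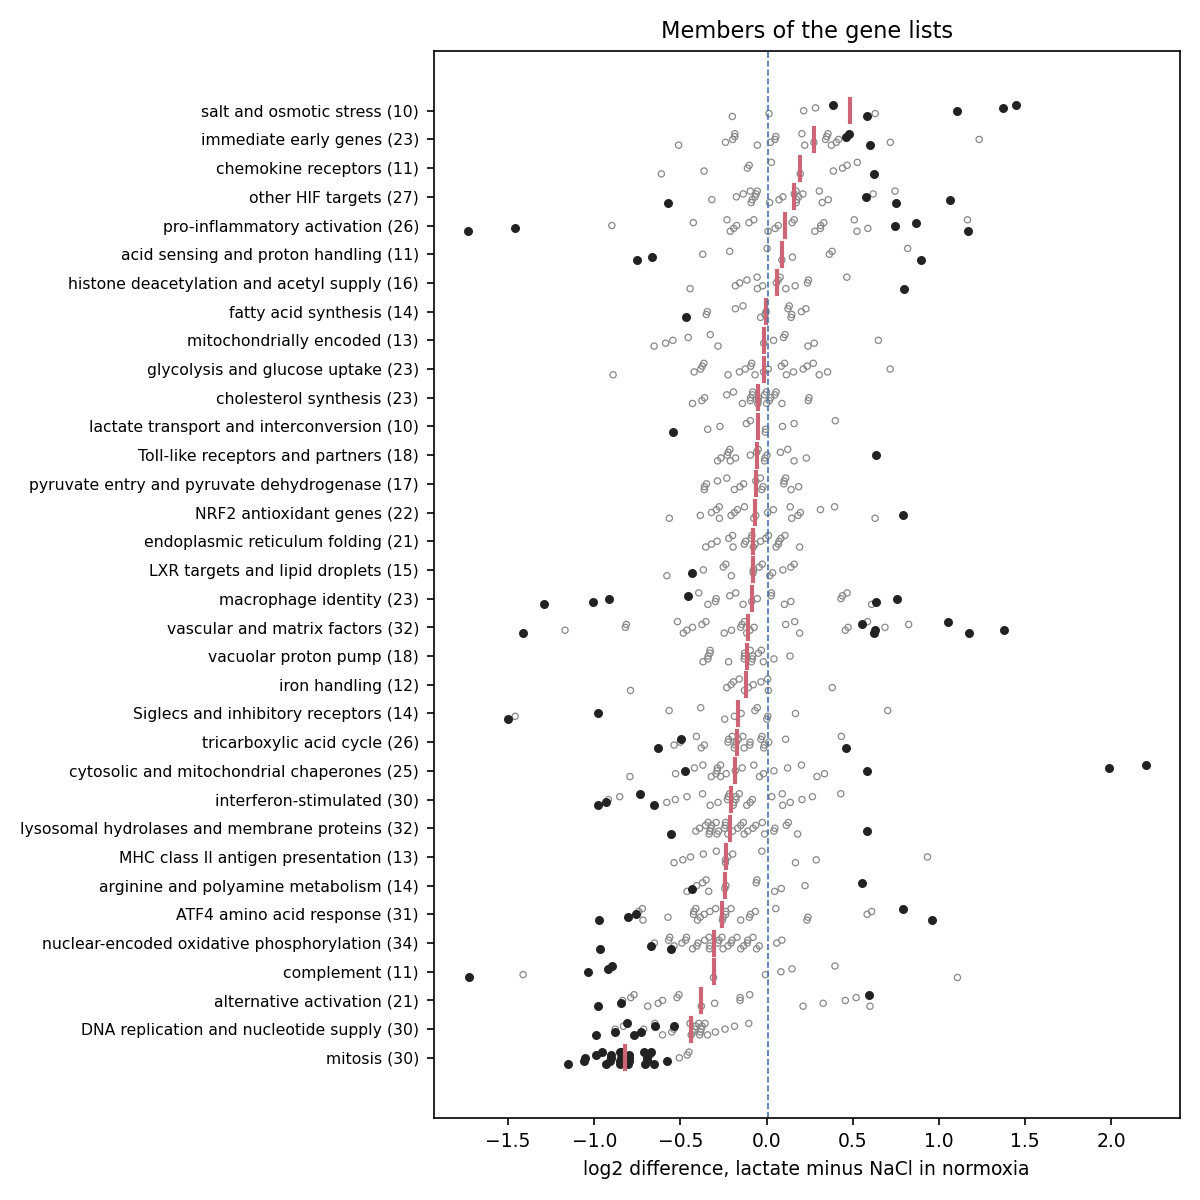
Log2 difference, lactate minus NaCl in normoxia, of each tested member of 34 gene lists (number tested in brackets), with filled points at an unadjusted p under 0.05, a red bar at each list's median and a dashed line at the median of all tested genes. Mitosis lies lowest, with a median of -0.82 and 26 of 30 members filled, and salt and osmotic stress highest, with a median of 0.49 and 5 of 10 filled.

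The libraries in 1% oxygen give the same lactate contrast in samples that the choice of the 10 genes above did not use. The lactate comparisons at the 2 oxygen levels share no library. In a fit of all 12 libraries edgeR called 0 genes for lactate in 1% oxygen (0% of 14616; 11.4% at an unadjusted p under 0.05; 0 by limma-voom, 112 by DESeq2). Without hypoxia-lactate 3 it called 6 (0.0398%; 9.4% at an unadjusted p under 0.05), namely Layn, Gm14111, Procr, Rab3il1, Mcrip1 and Cd33, of which Rab3il1 and Cd33 are among the 10 genes above. All 5 genes higher and all 5 lower in normoxia had the same sign in 1% oxygen. Groups did not overlap, in the same direction, for 3 of the 5 higher and 4 of the 5 lower, against 6.69% and 9.3% of all genes. These 3 were Hspa1a, Hspa1b and Hspa1l, neighbouring genes of one family. The split of reads between the first pair is uncertain, so they are not 3 separate results. Tal2 and Ifitm6 overlapped. With libraries 1 and 2 of hypoxia-lactate alone, groups did not overlap for 5 of 5 and 5 of 5, against 15.8% and 16.3%.

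Hspa1a was at 102, 98.1 and 55.7 CPM in hypoxia-NaCl and 186, 183 and 395 CPM in hypoxia-lactate, a difference of 1.58 ± 0.34 (1.12 ± 0.26 without hypoxia-lactate 3). All of these values were above the highest NaCl library in normoxia. Hspa1b had 1.31 ± 0.31 (1.197 ± 0.31) and Hspa1l 1.25 ± 0.26 (1.27 ± 0.21), both without overlap. Cd33 was at 11.1, 9.38 and 11.4 CPM in hypoxia-NaCl and 3.99, 3.30 and 2.91 CPM in hypoxia-lactate, a difference of -1.64 ± 0.28. Without hypoxia-lactate 3 it was -1.53 ± 0.23, which passed the threshold (edgeR BH-adjusted p = 0.0465). Rab3il1 had -1.34 ± 0.28, and -1.63 ± 0.24 without that library (edgeR BH-adjusted p = 0.0402).

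Mrc1 was at 7.63, 8.35 and 13.4 CPM in hypoxia-NaCl and 3.10, 5.89 and 1.25 CPM in hypoxia-lactate, without overlap, a difference of -1.51 ± 0.45 (-1.12 ± 0.31). Mertk had -0.81 ± 0.39 (-1.32 ± 0.31), with overlap only through hypoxia-lactate 3, and Maf had -0.76 ± 0.28 (-0.95 ± 0.27). Tal2, at 1.08 ± 0.67 (1.56 ± 0.51), and Ifitm6, at 0.64 ± 0.38 (1.02 ± 0.22), overlapped with all libraries and not without hypoxia-lactate 3.

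**Figure D5:**
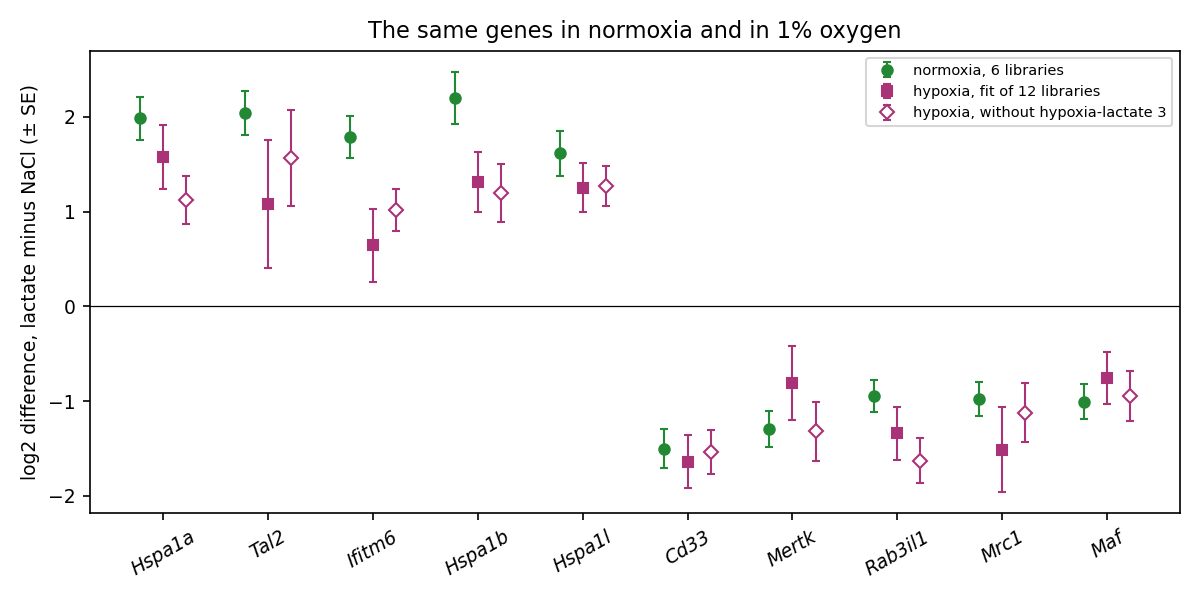
Log2 difference, lactate minus NaCl, with its SE, of the 10 genes in normoxia (green circles, 6 libraries) and in 1% oxygen (filled squares, fit of 12 libraries; open diamonds, without hypoxia-lactate 3). All 30 points have the sign of the gene's normoxia value, from 2.20 for Hspa1b in normoxia to -1.64 for Cd33 in 1% oxygen.

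The difference between the oxygen levels in their lactate contrast was tested as an interaction. With all 12 libraries 0 genes were called (0%; 3.4% at an unadjusted p under 0.05; 0 by limma-voom), and 0 without hypoxia-lactate 3 (4.04%). For the 10 genes the adjusted interaction p from edgeR was 0.902 or more in both fits. At an unadjusted interaction p under 0.05 there were 0 of the 10 with all libraries and 4 without hypoxia-lactate 3 (Hspa1a, Hspa1b, Ifitm6 and Rab3il1), and their normoxia values entered both their choice and this test. DESeq2 called 1 gene, Gm14111, a predicted gene, at a difference of 3.45 ± 0.64 (adjusted p = 8.70e-04). It was at 10.9, 5.79 and 3.42 CPM in normoxia-NaCl and 3.58, 5.65 and 2.71 CPM in normoxia-lactate, with overlap, and at 2.83, 2.70 and 2.41 CPM in hypoxia-NaCl against 17.3, 23.0 and 10.03 CPM in hypoxia-lactate.

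The lists can also be set beside their values in 1% oxygen. Unlike the 10 genes, the lists and their members were chosen with earlier results of these data known. Their values in 1% oxygen are therefore not independent of that choice. The mitosis median there was -0.82, and -0.52 without hypoxia-lactate 3, with 4 and 1 of 30 genes positive. At an unadjusted p under 0.05, 7 of these 30 were lower and 0 higher in each fit. The DNA replication and nucleotide supply median was -0.26 (-0.10 without hypoxia-lactate 3), with 9 (8) of 30 positive. At that threshold 2 of its genes were lower and 1 higher in each fit. At an unadjusted interaction p under 0.05, 1 (5) of its genes had a higher lactate difference in 1% oxygen than in normoxia. For all genes that share was 3.4% (4.04%) in either direction. The salt and osmotic stress median was 0.41 (0.65), with 9 of 10 positive and 3 (5) higher at an unadjusted p under 0.05. Of all 14616 genes in the fit of 12 libraries, 1068 were higher and 596 lower at that threshold in edgeR. Without hypoxia-lactate 3, 638 were higher and 780 lower of 15088. Slc6a12 had 1.14 ± 0.41 (1.32 ± 0.41), and Slc5a3 0.34 ± 0.40 (0.66 ± 0.35) with overlap in the full set. Cfp had -1.45 ± 0.38 (-1.46 ± 0.42), at 80.9, 106 and 134 CPM in hypoxia-NaCl and 25.4, 52.3 and 39.7 CPM in hypoxia-lactate, without overlap. Acss2 had 1.13 ± 0.23 (0.94 ± 0.17), also without overlap.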

How the data were processed

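Polyadenylated RNA of 12 libraries was sequenced on an Ion Proton instrument, per the labels' protocols. The table the authors deposited holds unnormalised read counts for Ensembl gene identifiers. BWA, HTSeq and mm9 are the tools and build listed in the submitters' processing notes. Overlapping, antisense and near-identical genes are uncertain, because neither strand setting nor annotation release is given in the sources used here. Another 5 counters in the deposited table name no gene and were left out; over the 6 normoxia libraries they held 8.34% to 18.4% (not unique), 13.7% to 21.9% (outside genes), 0.369% to 0.442% (ambiguous), 2.02% to 5.48% (not aligned) and 0% (low quality) of reads. A GENCODE annotation gave symbols for 32897 identifiers; promoter windows come from RefSeq on GRCm38.p6, another build than mm9, matched by symbol only.

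The 6 normoxia libraries were fitted with edgeR 4.0.16 in R 4.3.3 (quasi-likelihood F test, TMM scaling, filterByExpr), with Benjamini-Hochberg adjustment over all tested genes at 0.05. Lactate in 1% oxygen and the interaction came from a fit of all 12 libraries with a mean per group. CPM values of the normoxia libraries are scaled within those 6, except in the sums and the interaction values, which like the values in 1% oxygen are scaled within 12. Standard errors were computed back from the F statistic and 95% intervals from its degrees of freedom. The alternatives were RLE and upper-quartile factors, no filter, a mean of at least 5 CPM, DESeq2 1.42.0, limma-voom (limma 3.58.1) with and without library quality weights, all 12 or 11 libraries, the library number as a block, each library left out, and, added after seeing the data, 10 libraries. The script was tested on simulated data.

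The 41 gene lists hold 793 names, of which 3 had no identifier; no set test was run. Members, lists and tests were chosen with earlier results of these data known. The rule for named genes gives the 5 genes of smallest p in each direction where fewer than 5 are called, plus Arg1, Mrc1, Vegfa, Nos2, Slc16a1, Slc16a3, Ldha, Ldhb, Hcar1, Gpr132 and Atp6v0d2. List members and genes named beyond it were chosen after their values were seen, and members at an unadjusted p under 0.05 are named so that each count can be read. Some list members are not reported here.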

Additional observations from a re-analysis of the deposited data

How the results depend on the processing

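For lactate in normoxia the numbers of genes higher and lower, 0 and 0, were also 0 and 0 with RLE or upper-quartile factors, a mean of at least 5 CPM, limma-voom, all 12 libraries, and each library left out in turn (0 to 0). They were 9 and 4 with no filter, 22 and 16 with DESeq2, 10 and 6 with limma-voom quality weights, 4 and 1 with 11 libraries (without hypoxia-lactate 3), and 2 and 1 with 10 libraries (without normoxia-NaCl 1 too, added after seeing the data). With the library number as a replicate block they were 9 and 4. Same-numbered libraries had correlations of 0.0199, 0.174 and 0.238 between their deviations from the group means. In normoxia, libraries numbered 2 and 3 correlated best with their own number, while normoxia-NaCl 1 and normoxia-lactate 1 correlated best with another. In every group the summed erythroid and megakaryocyte markers were highest in library 2 and lowest in library 3, and the fibroblast sum was highest in library 1. The labels do not say that a number marks a shared mouse or day. The reported fit therefore has no block, and whether the numbers pair the samples is not known. Of the genes called by each alternative, DESeq2 shared 13 of 13 (no filter), 13 of 13 (block), 15 of 16 (quality weights), 5 of 5 (11 libraries) and 3 of 3 (10 libraries). For lactate in 1% oxygen the count was 0 in the reported fit, 6 without hypoxia-lactate 3 and 112 with DESeq2, and for the interaction 1 with DESeq2, with 0 under the block for both; the causes were not tested. Sign changes among named genes occurred for Ldha, whose log2 difference was 0.0172 (upper-quartile), 0.00164 (no filter), 0.0174 (5 CPM), 0.10 (quality weights), 0.00283 (11 libraries), 0.24 (10 libraries), 0.0112 (block), 0.24 without normoxia-NaCl 1, 0.0651 without normoxia-lactate 1 and 0.0773 without normoxia-lactate 3 (leave-one-out range -0.18 to 0.24); for Gpr132, -0.028 without normoxia-lactate 1 (range to 0.22); and for Atp6v0d2, 0.055 without normoxia-lactate 2 (range from -0.94). Each value of changed sign is smaller than the gene's SE in the reported fit. With 3 libraries per group, the 95% interval of a gene at 5 CPM or more reached 0.45 on the log2 scale to either side at the median.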

Other observations

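DESeq2 and the other alternatives called 39 genes in all, some of them on no list, and the following were chosen after their values were seen. Ndrg2, a gene of the N-myc downstream-regulated family, was at 21.5, 18.1 and 13.6 CPM in normoxia-NaCl and 42.2, 56.3 and 29.8 CPM in normoxia-lactate, a log2 difference of 1.27 ± 0.26 (edgeR BH-adjusted p = 0.505). In 1% oxygen its difference was 0.95 ± 0.38. Plcb4, a phospholipase C gene, was at 7.86, 10.5 and 8.10 CPM in NaCl and 18.6, 18.6 and 20.5 CPM in lactate (1.12 ± 0.19; edgeR BH-adjusted p = 0.277). Il12rb2, a chain of the interleukin 12 receptor, was at 14.8, 6.58 and 8.18 CPM in NaCl and 2.81, 2.43 and 3.56 CPM in lactate (-1.74 ± 0.34; edgeR BH-adjusted p = 0.451), and had -1.56 ± 0.49 in 1% oxygen. Il1r1, the interleukin 1 receptor, was at 1.45, 3.28 and 2.50 CPM in NaCl and 7.80, 6.68 and 5.54 CPM in lactate (1.45 ± 0.33). In each of these 4 genes the normoxia groups did not overlap.

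The ATF4 amino acid response list had medians of opposite sign at the oxygen levels. Its median log2 difference was -0.26 in normoxia (31 genes; -0.15 without normoxia-lactate 3 or normoxia-NaCl 1, -0.44 without normoxia-lactate 2) and 0.33 in 1% oxygen (32 genes), or 0.45 without hypoxia-lactate 3. At an unadjusted interaction p under 0.05, 5 of its 32 genes had a higher lactate-minus-NaCl difference in 1% oxygen than in normoxia. Without hypoxia-lactate 3 the count was 8. The share of all genes in either direction was 3.4% (4.04%), and 0 of the 32 passed the adjusted threshold of edgeR. Slc7a5, an amino acid transporter of the list, had a normoxia difference of -0.97 ± 0.31 and 0.69 ± 0.51 in 1% oxygen.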
